A study of Mus musculus with 12 samples.

Results

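The interferon-inducible Irg and Gbp GTPases were followed in the livers of 12 male C57BL/6 mice by RNA-Seq. The set holds 10 genes, Irgm1, Irgm2, Igtp, Iigp1, Tgtp1, Tgtp2, Ifi47, Gbp2, Gbp3 and Gbp7, taken by name from a table of 55385 annotated features. The list was drawn up with earlier results of these data known. All 10 were present and all 10 had a mean of at least 1 TPM (a level per transcript length, scaled to the same total in each library). Mice 7 weeks old received 500000000 PFU of adenovirus and were killed on day 7. Ad-Ctrl mice received the control viruses named Lac and pAdV5, Ad-shmGULL mice an shRNA virus (sh-mGULL) against the mouse lncRNA mGULL together with pAdV5, and Ad-shmGULL+hGULL mice the shRNA virus and a virus carrying the human functional equivalent hGULL. Each group had 4 mice and is called here the control, the knockdown and the rescue group. Every mouse thus carried adenovirus, which is itself a stimulus of interferon responses, and no uninfected liver is among the libraries. The study lists 4 shRNAs against mGULL without saying in its text which was used here, and the route is given in one place as retro-orbital and in another as intravitreal. Levels of mGULL and hGULL in these libraries were not analysed here.

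Interferon gamma, made by T cells and NK cells, and type I interferons, made by most infected cells, act through JAK kinases and STAT factors. These factors bind elements named GAS and ISRE in the promoters of the genes they induce. Immunity-related GTPases (Irg) and guanylate-binding proteins (Gbp) are among the most strongly induced products in mouse cells, where they gather on vacuoles holding intracellular pathogens and break them open. Irgm1, Irgm2 and Igtp are the regulatory Irg proteins, which sit on the cell's own membranes and hold the effector Irg proteins inactive there. Iigp1, Tgtp1, Tgtp2 and Ifi47 are effector Irg proteins, and Gbp2, Gbp3 and Gbp7 are Gbp family members.

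Members lie together in the genome. In the RefSeq annotation of GRCm38.p6, the build to which the reads were aligned, Gbp7, Gbp3 and Gbp2 stood within 107673 bp of the plus strand of chromosome 3, from 142530336 to 142638008. Irgm1, Tgtp1 and Tgtp2 on the minus strand and Ifi47 on the plus strand stood within 231743 bp of chromosome 11, from 48865245 to 49096987. Igtp and Irgm2 followed on the plus strand of the same chromosome within 23228 bp, from 58199556 to 58222783. Iigp1 stood on another chromosome, away from the other 9.

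Promoter windows were found for 9 of the 10 genes in RefSeq (GRCm38.p6, 250 bases before and 50 bases after the annotated start), and Iigp1 was not matched. The windows were searched on both strands for an ISRE core (GAAA, any 2 bases, GAAA) and for a GAS (TTC, any 3 bases, GAA). The 120 bases that precede the start are given for 7 genes, 5′ to 3′ on the strand of the gene, because the motifs differ in their arrangement between them. Capitals mark bases in a match to either motif and, where the motifs stand 2 bases apart, also those 2 bases.
Igtp: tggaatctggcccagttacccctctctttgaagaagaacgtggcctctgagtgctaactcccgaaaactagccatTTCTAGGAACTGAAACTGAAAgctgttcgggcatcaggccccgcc
Irgm2: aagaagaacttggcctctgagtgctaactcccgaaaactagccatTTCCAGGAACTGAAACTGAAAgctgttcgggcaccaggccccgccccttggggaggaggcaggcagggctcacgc
Tgtp1: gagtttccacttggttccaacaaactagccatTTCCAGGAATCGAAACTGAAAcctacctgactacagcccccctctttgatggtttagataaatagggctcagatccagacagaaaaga
Tgtp2: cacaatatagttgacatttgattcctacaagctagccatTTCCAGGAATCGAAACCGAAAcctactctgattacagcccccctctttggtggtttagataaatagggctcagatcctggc
Irgm1: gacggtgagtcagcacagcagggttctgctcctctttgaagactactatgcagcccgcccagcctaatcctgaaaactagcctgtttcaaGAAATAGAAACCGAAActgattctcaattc
Gbp7: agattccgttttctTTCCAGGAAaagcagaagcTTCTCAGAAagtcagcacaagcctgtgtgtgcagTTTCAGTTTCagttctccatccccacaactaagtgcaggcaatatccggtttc
Ifi47: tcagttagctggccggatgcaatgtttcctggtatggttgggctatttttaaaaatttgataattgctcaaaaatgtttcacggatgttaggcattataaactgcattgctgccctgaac
The printed stretches lie at chr11:58199436-58199555 for Igtp, chr11:58214857-58214976 for Irgm2, chr11:48992247-48992366 for Tgtp1, chr11:49064213-49064332 for Tgtp2, chr11:48871421-48871540 for Irgm1, chr3:142530216-142530335 for Gbp7 and chr11:49076467-49076586 for Ifi47.

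The 9 genes had 10 windows, since Gbp3 had 2, of which only the first held matches. An ISRE core was present in 8 of the 10 windows, from 8 of the 9 genes, compared with 3.44% of all 32851 windows in the table. A GAS was present in 5 of the 10 windows, those of Gbp7, Igtp, Irgm2, Tgtp1 and Tgtp2, compared with 8.30% of all windows. Every match in these genes fell in the printed stretch or, for Gbp3 and Gbp2, in the 120 bases before the start. In Igtp, Irgm2, Tgtp1 and Tgtp2 the GAS and the ISRE core stood in the same order and 2 bases apart, a spacing noticed after the sequences were seen. That joined motif (the GAS, any 2 bases, and the ISRE core) was present in 5 of all 32851 windows (0.0152%). The fifth window was that of Gm12185, another Irg gene on chromosome 11. These windows are related in sequence, since Igtp and Irgm2 shared a run of 61 identical bases and Tgtp1 and Tgtp2 a run of 27. Ifi47 held neither motif in its window, which covers only the annotated start listed for it. The gene has 8 coding transcripts in GENCODE M39, and any other start was not searched. These matches are letters in a window and not measured binding sites.

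**Figure D1:**
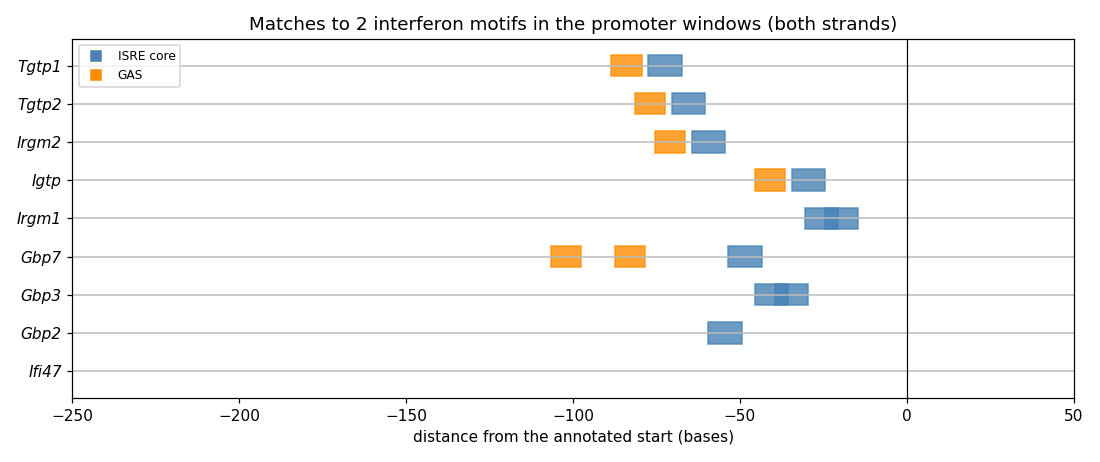
Matches to the ISRE core (blue) and the GAS (orange) in the promoter windows of 9 genes, by distance in bases from the annotated start, with overlapping matches drawn darker and only the first window of Gbp3 holding matches. Igtp, Irgm2, Tgtp1 and Tgtp2 show the GAS followed by the ISRE core, and Ifi47 shows no match.

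The genes differ in how surely reads can be assigned to them. Of the 50-base words in Tgtp1 transcripts (GENCODE M39), 82.6% were found in another gene, and 90.6% of those in Tgtp2, mostly in each other. How reads that fit several genes were counted is not given in the sources used here, so the split between Tgtp1 and Tgtp2 is uncertain and their sum is given as well. For the other 8 genes the shared part was between 0.558% (Irgm1) and 11.6% (Gbp7, mostly with Gm43802).

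Libraries were alike in breadth, with 15525 to 16929 features above 1 TPM. Over all tested features, the knockdown library numbered 1 had the lowest median correlation with its own group (0.964, against 0.970 to 0.986 in the others), so the main counts are also given without it. Since TPM values sum to the same total in every library, depth is unknown and the precision is given by the spread between 4 mice.

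Iigp1 was the most abundant transcript of the set in every liver, at 833 ± 276 TPM in the control group (SD, n = 4). Alone it made up 40.0% to 45.2% of the summed TPM of the 10 genes in each liver, and together with Igtp 61.3% to 66.8%. Igtp (432 ± 143 TPM) and Irgm2 (202 ± 55.4 TPM) came next in the control group. Ifi47 (148 ± 58.9 TPM) and Irgm1 (125 ± 33.8 TPM) differed on average by less than their spread between mice, although Ifi47 was the higher in all 4 control mice. Gbp2, Gbp7 and Gbp3 averaged 85.4 ± 29.55, 65.5 ± 20.4 and 55.5 ± 16.5 TPM in the control group, and Gbp2 exceeded Gbp7 in all 12 livers. Tgtp1 (39.2 ± 16.1 TPM) and Tgtp2 (9.14 ± 3.61 TPM) were the lowest, within the uncertainty of their split.

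The summed level of the 10 genes was 1925, 2819, 1969 and 1264 TPM in the control mice, 400, 1121, 1230 and 904 TPM in the knockdown mice, and 2279, 1766, 2181 and 1717 TPM in the rescue mice. All 4 knockdown sums were below the lowest control sum and below the lowest rescue sum. The spread was uneven, and the median coefficient of variation over the 10 genes was 33.2% in the control group, 39.8% in the knockdown group and 14.5% in the rescue group. The knockdown mouse numbered 1 was the lowest of all 12 mice for all 10 genes, and the control mouse numbered 4 was the lowest control for all 10. The control mouse numbered 2 was the highest of all 12 for 9 genes, the exception being Tgtp2.

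**Figure D2:**
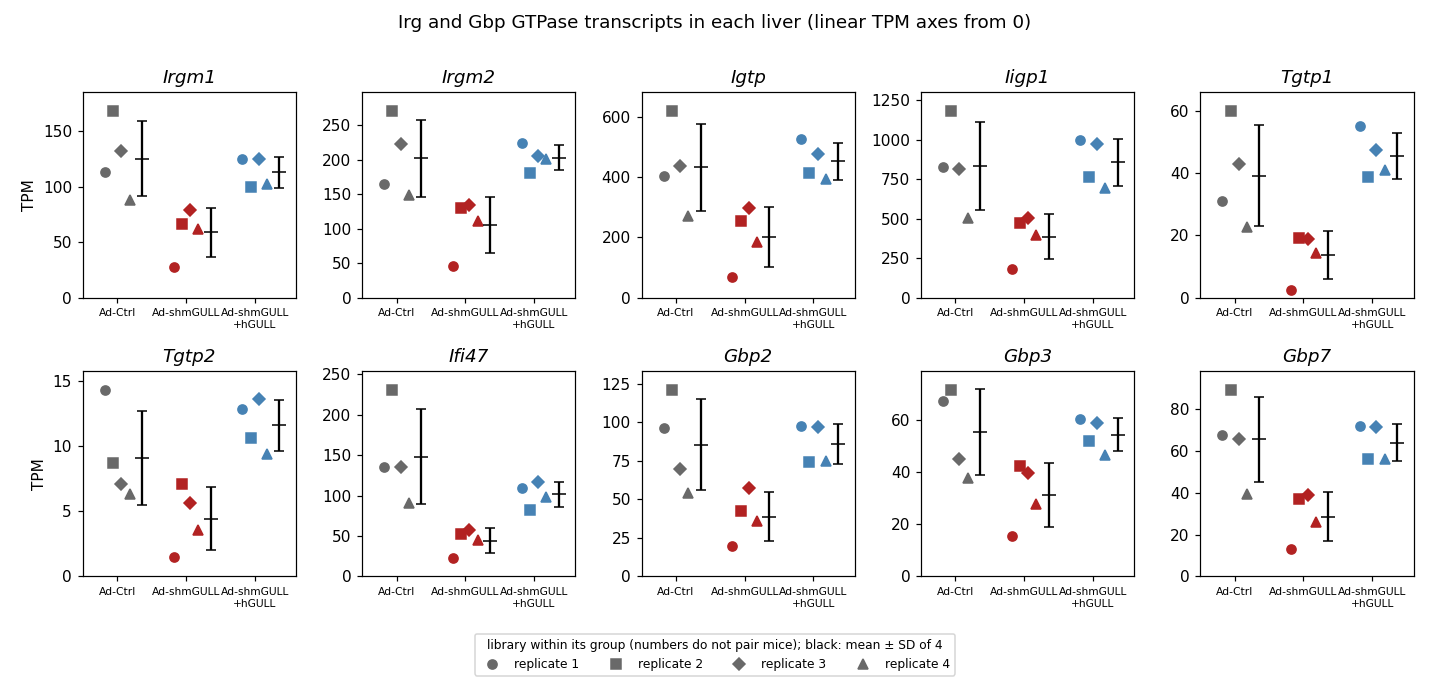
TPM of each gene (linear axes from 0) in each of 4 control, 4 knockdown and 4 rescue livers, with the mean and SD in black. The knockdown livers are below all 4 rescue livers for all 10 genes, and the knockdown liver numbered 1 is the lowest for each.

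The knockdown group was first compared with the control group. All 10 genes had lower means in the knockdown group, at 30.0% (Ifi47) to 56.5% (Gbp3) of the control mean. Irgm1 and Ifi47 passed a Benjamini-Hochberg adjusted p under 0.05 over all 16378 tested features in limma. That is 2 of 10 genes, compared with 0.794% of all tested features called lower. The study's own threshold asks for an unadjusted p under 0.05 and a log2 fold change of more than 0.5 in size. All 10 fell by it, compared with 2.30% of all tested features. The median log2 fold change was -1.15, compared with 0.09 over all tested features. In whole liver, fewer cells that make a transcript and less transcript per cell cannot be told apart. Libraries are separate mice, so the tests measure the spread between animals.

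Of the regulatory genes, Irgm1 measured 113, 168, 132 and 87.7 TPM in the control mice and 27.9, 66.6, 78.6 and 61.8 TPM in the knockdown mice. No knockdown mouse reached the lowest control mouse. Irgm1 fell by 1.14 on the log2 scale (SE 0.28, limma adjusted p = 0.0450). Irgm2 measured 165, 270, 222 and 149 TPM in the control mice and 46.4, 129, 134 and 111 TPM in the knockdown mice. These values did not overlap either, and its log2 fold change was -1.001 (SE 0.29, limma adjusted p = 0.0776). Igtp measured 405, 618, 435 and 270 TPM in the control mice and 69.6, 253, 297 and 185 TPM in the knockdown mice. Its groups overlapped, because the highest knockdown mouse exceeded the lowest control mouse. Its log2 fold change was -1.23 (SE 0.37, limma adjusted p = 0.0902).

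Among the effector genes, Ifi47 had the lowest adjusted p of the set. It measured 135, 231, 135 and 91.5 TPM in the control mice and 22.6, 52.7, 57.9 and 44.6 TPM in the knockdown mice, with no overlap. Ifi47 fell by 1.72 on the log2 scale (SE 0.29, limma adjusted p = 0.0132). Iigp1 measured 830, 1181, 814 and 506 TPM in the control mice and 181, 471, 502 and 395 TPM in the knockdown mice. The gap between the groups was narrow, at 506 against 502 TPM, and the log2 fold change was -1.14 (SE 0.31, limma adjusted p = 0.0656). Tgtp1 measured 31.2, 60.0, 42.9 and 22.7 TPM in the control mice and 2.49, 19.1, 18.8 and 14.4 TPM in the knockdown mice. The lowest knockdown mouse stood well apart from the other 3, and the log2 fold change was -1.64 (SE 0.48, limma adjusted p = 0.0775). Tgtp2 measured 14.3, 8.73, 7.14 and 6.33 TPM in the control mice and 1.51, 7.07, 5.62 and 3.59 TPM in the knockdown mice. These overlapped, and its log2 fold change was -0.96 (limma adjusted p = 0.115), the highest adjusted p of the set. Tgtp1 and Tgtp2 summed to 45.6, 68.7, 50.01 and 29.0 TPM in the control mice and 4.01, 26.2, 24.4 and 17.98 TPM in the knockdown mice, so that the sum did not overlap between the groups.

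Of the Gbp genes, Gbp7 measured 67.6, 89.3, 65.9 and 39.4 TPM in the control mice and 13.1, 36.8, 38.8 and 25.9 TPM in the knockdown mice. These did not overlap, and the log2 fold change was -1.22 (SE 0.31, limma adjusted p = 0.0501). Gbp2 measured 96.5, 121, 69.9 and 54.2 TPM in the control mice and 19.5, 42.4, 57.6 and 35.9 TPM in the knockdown mice. Gbp3 measured 67.3, 71.8, 45.1 and 38.0 TPM in the control mice and 15.7, 42.4, 39.8 and 27.7 TPM in the knockdown mice. Both overlapped, with log2 fold changes of -1.15 (limma adjusted p = 0.0551) and -0.85 (limma adjusted p = 0.109). Over the set, 6 of 10 genes had non-overlapping groups, compared with 2.06% of all tested features that were lower without overlap. For each of the 6, the exact two-sided permutation p was 0.0286, the smallest that the 70 splits of 8 mice allow.

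Without the knockdown mouse numbered 1, all 10 log2 fold changes were between -1.43 and -0.56 with a median of -0.82, and Irgm1 and Ifi47 were again called. In that fit 83 of 16412 tested features were called lower. The number of the 10 genes called otherwise followed single libraries and settings. It was 8 without the knockdown mouse numbered 3, 5 with a mean TPM of at least 5 or with median-of-ratios scaling, and 0 when only the control and knockdown groups were fitted. The number of all tested features called lower moved as well, at 243, 169, 341 and 6 in the same order, compared with 130 in the main fit. Without the control mouse 2 or 3, the knockdown mouse 2 or 4, or any 1 of the 4 rescue mice, Ifi47 alone was called. In those fits 38 to 91 of all tested features were called lower.

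**Figure D3:**
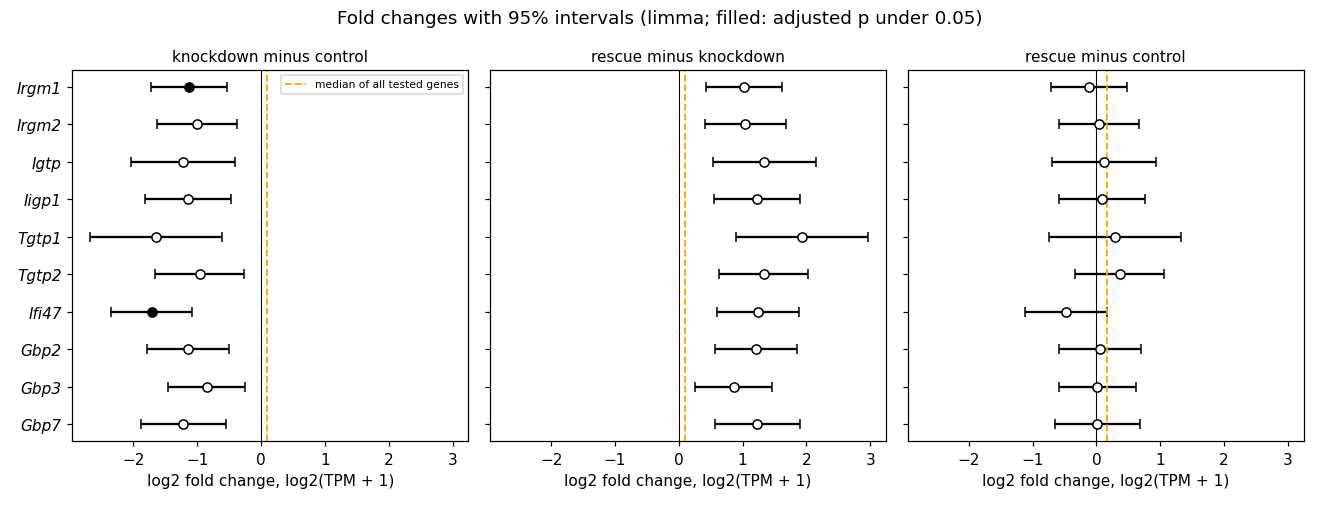
Log2 fold changes on the log2(TPM + 1) scale with 95% limma intervals for the 10 genes in 3 comparisons, with filled points at an adjusted p under 0.05 and the median of all tested genes as a dashed line. All 10 lie below 0 after knockdown and above 0 in rescue against knockdown, and only Irgm1 and Ifi47 after knockdown are filled.

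The rescue group was then compared with the knockdown group. All 10 genes had higher means in the rescue mice, at 173% (Gbp3) to 332% (Tgtp1) of the knockdown mean, and for all 10 every rescue mouse was above every knockdown mouse. Non-overlapping higher values occurred in 5.40% of all tested features. The exact two-sided permutation p was 0.0286 for each gene, the smallest possible. All 10 passed the study's threshold, compared with 2.33% of all tested features. None passed an adjusted p under 0.05 in limma (0.318 to 0.374). No tested feature did in this comparison (0%), although 1757 features (10.7%) had an unadjusted p under 0.05. The median log2 fold change was 1.23, compared with 0.09 over all tested features.

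In the rescue mice Tgtp1 measured 55.0, 38.7, 47.4 and 40.9 TPM, with a log2 fold change of 1.93 over knockdown (SE 0.48), the largest of the set. Iigp1 measured 997, 761, 971 and 695 TPM (log2 fold change 1.23, SE 0.31). In both genes the rescue mice lay closer together than the control mice. Igtp measured 527, 412, 475 and 392 TPM (log2 fold change 1.34, SE 0.37), Irgm1 measured 125, 99.3, 125 and 103 TPM (log2 fold change 1.02, SE 0.28) and Gbp7 measured 72.0, 56.1, 71.7 and 56.3 TPM (log2 fold change 1.23, SE 0.31). The other 5 genes had log2 fold changes of 0.86 (Gbp3) to 1.33 (Tgtp2). Without the knockdown mouse numbered 1, the log2 fold changes were between 0.57 and 1.33 with a median of 0.90. This comparison and the first share the knockdown mice, so their opposite directions are not independent of each other.

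The rescue group was last compared with the control group. None of the 10 genes passed either threshold, compared with 2.15% of all tested features at an adjusted p under 0.05 and 7.49% at the study's threshold, and the groups of all 10 overlapped. Of all tested features 0.855% were lower and 21.4% higher without overlap. Means in the rescue group were 68.5% (Ifi47) to 127% (Tgtp2) of the control means. The median log2 fold change was 0.05, compared with 0.17 over all tested features. The 95% intervals of single genes reached from -1.11 to 1.32 on the log2 scale, each gene having its own, so the missed thresholds do not show that the levels were alike. Signs were not stable, as 8 of 10 fold changes were above 0 in the deposited TPM and 2 of 10 with median-of-ratios scaling. Tgtp1 and Tgtp2 were higher and Ifi47 lower under all 22 other settings as well.

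Ifi47 was lower relative to the other 9 genes in the knockdown and rescue groups than in the control group. Its rescue values were 109, 81.9, 117 and 98.3 TPM, so that 3 of the 4 control mice exceeded the highest rescue mouse. In TPM these groups overlapped (limma adjusted p = 0.326). Set against the mean of the other 9 genes in the same library, which removes the scaling of the library, Ifi47 was 0.38 to 0.77 higher on the log2 scale in the control mice. In the knockdown mice the same difference was -0.19 to 0.18, and in the rescue mice -0.19 to 0.09. Neither group overlapped the control group, and Ifi47 was the only 1 of 10 genes for which that held in either comparison with the control. Between rescue and knockdown, the relative levels of Irgm1, Tgtp1 and Gbp3 did not overlap, with Tgtp1 relatively higher and Irgm1 and Gbp3 relatively lower in the rescue mice. In knockdown against control the mean relative level moved by -0.57 for Ifi47 and by -0.49 for Tgtp1, whose groups overlapped. Between rescue and knockdown that of Tgtp1 moved by 0.76. The relative level was chosen as a measure after the values were seen and no test was made of it. It is defined for these 10 genes only, so no share of all tested features stands beside the counts.

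**Figure D4:**
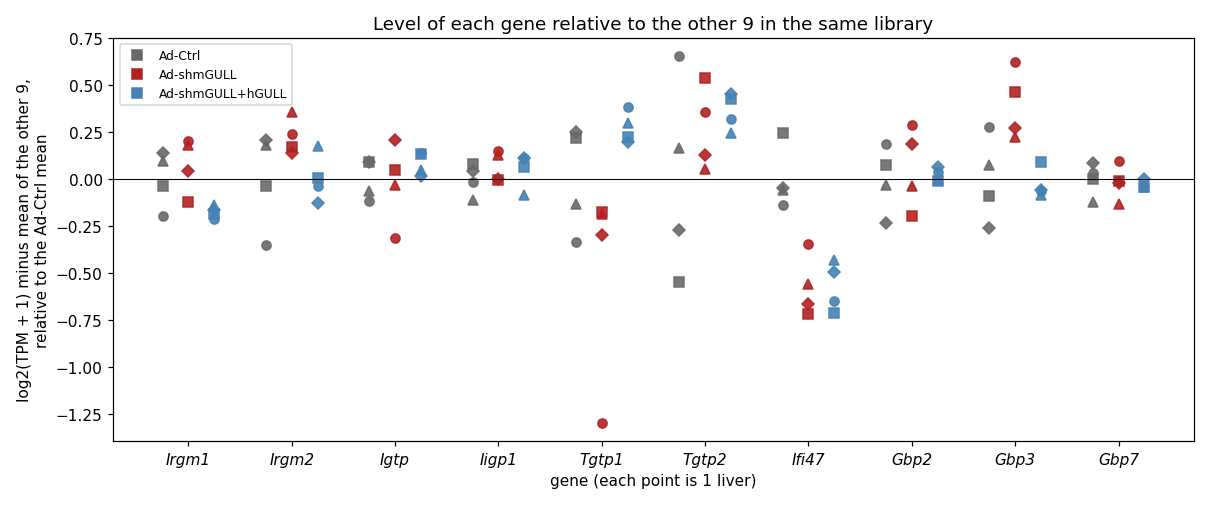
Log2(TPM + 1) of each gene minus the mean of the other 9 genes in the same liver, set to 0 at the control mean, with 1 point a liver. Ifi47 lies below all 4 control livers in all 8 knockdown and rescue livers.

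The 10 genes also varied together from mouse to mouse. Over 12 libraries the 45 pairs had Pearson correlations of 0.80 to 0.99 (median 0.96), and after the group means were removed 0.67 to 0.99 (median 0.94). These are descriptions, since all pairs share the same libraries and their scaling. The lowest pairs in both cases held Tgtp2. Without it, the lowest correlation over 12 libraries was 0.91.

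Relatives of these genes were read next, as a list of 21 other Irg, Gvin and Gbp genes, of which 20 were in the table and 18 were tested. In knockdown against control 16 of 18 were lower, with a median log2 fold change of -0.76. At an adjusted p under 0.05 in limma 5 were called lower, compared with 0.794% of all tested features. The 5 were Gm12250 (-1.45), Gbp6 (-1.08), Gm4070 (-0.86), Gvin1 (-0.84) and Gm4951 (-0.53). Gm12250 is annotated as a processed pseudogene in the table but measured 74.5 to 231 TPM in the control mice, more than Irgm1 on average. It measured 24.5 to 77.1 TPM in the knockdown mice and 89.4 to 114 TPM in the rescue mice. Not all relatives had low values, since Gbp2b (-0.13), Irgq (0.03), which lacks a known link to interferon, and 9930111J21Rik2 (0.05) had log2 fold changes near 0. Without the knockdown mouse numbered 1, none of the 18 was called, in a fit that called 83 of 16412 tested features lower. In rescue against knockdown 17 of 18 were higher, with a median of 0.62, and none was called in limma. Of the 18, 12 passed the study's threshold in each of these comparisons. By that threshold 2.30% of all tested features were lower after knockdown and 2.33% higher in rescue against knockdown. In rescue against control 10 of 18 were higher (median 0.02) and none was called.

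Signalling genes upstream of the GTPases were read in the same fit. Of 13 interferon ligands and inducing cytokines, 3 were listed at 0 in all 12 libraries and 3 were tested, Il18, Il27 and Tnf, with none called in any comparison. Ifng, which encodes interferon gamma, measured 0.131 to 0.521 TPM in the control mice, 0.0781 to 0.740 TPM in the knockdown mice and 0.212 to 0.952 TPM in the rescue mice. These values overlapped and were too low to pass the filter. Of 21 tested receptor, JAK-STAT and IRF genes, 13 were lower and 8 higher in knockdown against control (median -0.11), and none was called. Irf7, a factor of type I interferon responses (-0.82, limma adjusted p = 0.0501), and Usp18, a brake on their receptor (-0.55, limma adjusted p = 0.0873), were among the 3 that passed the study's threshold. By that threshold 2.30% of all tested features were lower. The interferon gamma receptor genes Ifngr1 (0.12) and Ifngr2 (-0.13) had log2 fold changes near 0. In rescue against knockdown 20 of these 21 genes were higher (median 0.20) and none was called. The study's threshold was passed by 4, compared with 2.33% of all tested features that were higher by it.

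Other interferon-induced genes gave the wider setting. Of 18 tested interferon gamma target genes outside the GTPases, 15 were lower after knockdown (median -0.53) and none was called. The study's threshold was passed by 9 of them, compared with 2.30% of all tested features that were lower by it. These include Tap1, a peptide transporter of antigen presentation (-0.68, limma adjusted p = 0.0624). All 20 type I interferon effectors were lower (median -0.67), and 5 were called, Ifit1 (-1.33), Isg15 (-1.11), Ifi44 (-0.90), Rsad2 (-0.90) and Mx2 (-0.82). Among all tested features 0.794% were called lower. In rescue against knockdown, 17 of the 18 gamma targets (median 0.48) and all 20 type I effectors (median 0.60) were higher, with none called. In rescue against control the medians were 0.05 and -0.08, with none called. The 10 ubiquitin-like conjugation genes, whose products guide these GTPases to vacuoles, had medians of -0.02, 0.09 and 0.04 in the same order of comparisons, with none called.

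**Figure D5:**
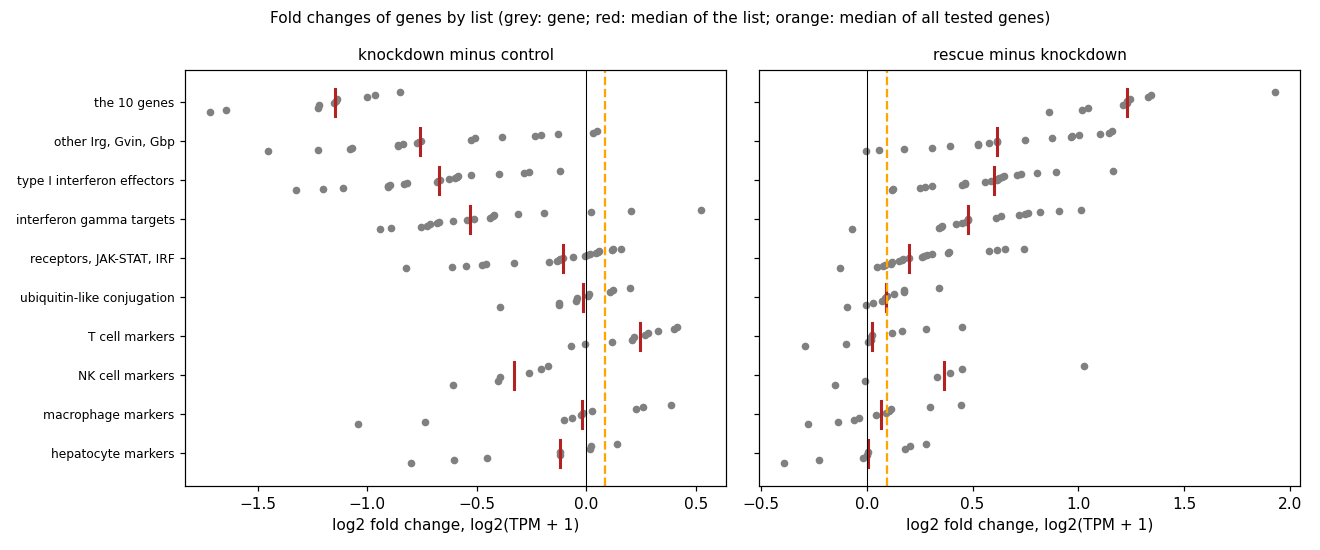
Log2 fold changes on the log2(TPM + 1) scale of the tested genes of each list, with 1 grey point a gene, the median of the list in red and the median of all tested genes as an orange dashed line. The 10 GTPase genes have the lowest median after knockdown (-1.15) and the highest in rescue against knockdown (1.23) of the lists drawn.

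Markers of the cells that could make or answer interferon were read beside these values. The 8 hepatocyte markers summed to 87083 to 122282 TPM in the control mice, 88800 to 104958 TPM in the knockdown mice and 78288 to 93018 TPM in the rescue mice. Hepatocyte genes were thus abundant in every library. After knockdown 5 of the 8 were lower (median -0.12) and none was called. The study's threshold was passed by 2, both lower, compared with 2.30% of all tested features that were lower by it. The 8 NK cell markers summed to 23.3 to 63.3 TPM, 16.2 to 40.3 TPM and 34.97 to 44.1 TPM in the control, knockdown and rescue mice. Of the 6 NK markers tested, 6 were lower after knockdown (median -0.33) and none was called. The 10 T cell markers summed to 18.5 to 76.5 TPM, 25.3 to 53.2 TPM and 38.0 to 58.2 TPM, and 8 of 10 were higher after knockdown (median 0.24). The 10 Kupffer cell and macrophage markers summed to 718 to 1209 TPM, 688 to 1195 TPM and 863 to 1081 TPM, and 6 of 10 were lower (median -0.02). The 6 monocyte and neutrophil markers had 2 of 5 tested lower (median 0.14), and the 4 B cell markers read had 3 of 3 tested higher (median 0.38). Of the 5 endothelial markers all were higher (median 0.40) and 1, Stab2, was called (0.54), compared with 2.44% of all tested features called higher. Of 5 stellate cell markers 4 were higher (median 0.28), and of 3 tested cholangiocyte markers 1 was higher (median -0.04). The knockdown mouse numbered 1 had the lowest sum of all 12 mice for the NK cell and the macrophage markers, and the lowest of its group for the T cell, B cell and stellate cell markers. No marker was at 0 in every library. The part of these cell types in the levels of the GTPases was not tested.

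Outside the set, the genes most like it were sought by Pearson correlation of log2(TPM + 1) with the mean standardized level of the 10 genes over 12 libraries. Among the highest were Zbp1 (0.99), a nucleic acid sensor, Gbp6 (0.98), Parp14 (0.98), BC023105 (0.98), Cd274 (0.98), which encodes PD-L1, Nlrc5 (0.98), an activator of MHC class I genes, Tap1 (0.97), Meiob (0.97), Rnf213 (0.97) and Samhd1 (0.97). Of 16368 other tested features, 74 had a correlation above 0.9. BC023105, annotated as a processed pseudogene, averaged 321 TPM in the control, 92.0 TPM in the knockdown and 315 TPM in the rescue group. It was called after knockdown (log2 fold change -1.93, SE 0.47, limma adjusted p = 0.0448). Its groups overlapped, since the highest knockdown mouse (167 TPM) exceeded the lowest control mouse (154 TPM). These points share libraries and scaling, and nothing on function is drawn from them.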

How the data were processed

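The libraries were strand-specific. The authors trimmed reads with fastp 0.23.2, checked them with FastQC 0.11.8, aligned them with HISAT2 2.2.1.0 to GRCm38.p6, counted them with featureCounts (Subread 2.0) on GENCODE annotation and deposited TPM values. Strand and multi-mapping options are not given in the sources used here. No column was left out.

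Groups followed the labels. Features with a mean of at least 1 TPM (16378) were fitted on log2(TPM + 1), which understates changes of low genes, in limma 3.58.1 (R 4.3.3), with 3 groups, no covariate, a mean-variance trend and Benjamini-Hochberg adjustment. Exact permutation tests compared 4 with 4 mice. The limma fit was tested on simulated data with noise drawn independently for each gene. Variation that genes share within a library was not simulated. Alternatives were a pseudocount of 0.1, other filters, scalings and designs, array weights, a replicate block and each mouse left out. Genes and lists were chosen with earlier results of these data known. All 10 genes are named, as are the tested relatives that were called or near 0, up to 4 genes of each list with the smallest p, and the 10 most correlated features that are reported. The values of 2 genes of the lists are not reported here. Sequences came from RefSeq, and figures from matplotlib 3.10.9.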

Additional observations from a re-analysis of the deposited data

Results flagged for a closer look

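Within each group of 4 mice, the highest or lowest value was compared with the nearest other value as a share of the group's range, by Dixon's 95% criterion. The genes compared were the 10 GTPase genes, their tested relatives, the genes of each list with the smallest p after knockdown, the interferon gamma ligand and receptor genes and the most correlated features. Other genes of the lists were not compared. Of 273 groups of values (91 genes in 3 groups), 9 stood apart (3.30%), and chance alone flags about 1 in 20. None of the 10 GTPase genes was among them, although the knockdown mouse numbered 1 was the lowest for each.

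Among relatives and interferon genes, Gm12185 was at 0.181 TPM in the knockdown mouse numbered 1, against 1.30 to 1.48 TPM in the other 3. Serpina3g was at 46.9 TPM in the control mouse numbered 1, against 33.7 to 35.7 TPM. Mx2 was at 8.17 TPM in the knockdown mouse numbered 3, against 7.08 to 7.26 TPM. Rnf213 was at 163 TPM in the rescue mouse numbered 4, against 193 to 197 TPM, and Tnf was at 6.70 TPM in the same mouse, against 3.40 to 3.89 TPM.

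Among cell type markers, Marco was at 19.2 TPM in the knockdown mouse numbered 3, against 5.79 to 7.65 TPM, and Ly6c2 at 6.71 TPM in the same mouse, against 3.03 to 3.39 TPM. Cd3d was at 1.51 TPM in the rescue mouse numbered 4, against 2.23 to 2.37 TPM. Trac was at 16.3 TPM in the rescue mouse numbered 2, against 8.91 to 9.98 TPM.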

How the results depend on the processing

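Under 22 other settings, 2 of them chosen after seeing the data, all 10 genes stayed lower in knockdown than in control and higher in rescue than in knockdown, and none was called in rescue against knockdown or rescue against control. What moved was the number called at an adjusted p under 0.05 after knockdown, 2 as reported. It was 1 with no filter on low values, 5 with a mean TPM of at least 5, 5 with median-of-ratios scaling, 4 with quantile normalization, 0 with only the groups compared, 1 with array weights, and 1 to 8 when 1 mouse was left out. Only Ifi47 was called under all settings but 1. Of the 18 relatives, 5 as reported, it was 3 with a pseudocount of 0.1, 0 with no filter, 3 with a mean TPM of at least 5, 0 with only the groups compared, 0 with array weights, 1 with median-of-ratios scaling without the knockdown mouse numbered 1, and 0 to 5 when 1 mouse was left out. Among all features tested, 130 were called lower as reported, 56 with no filter and 169 with a mean TPM of at least 5. The number was 341 with median-of-ratios scaling, 288 with quantile normalization, 6 with only the groups compared and 108 with array weights. It was 38 to 243 when 1 mouse was left out.

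Deviations from group means correlated by -0.24 to 0.15 between same-numbered mice of different groups, and by -0.18 to 0.17 between differently numbered mice. The main fit therefore used no pairing by number, although these values cannot show whether same-numbered mice were handled together. With the replicate block 1 of the 10 genes and 2 relatives were called after knockdown, and with the replicate block and median-of-ratios scaling 5 of the 10. Of all 16378 tested features, 114 were called lower with the block and 299 with the block and that scaling.

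In rescue against control, 1 gene (Ifi47, log2 fold change -0.67) passed the study's threshold with median-of-ratios scaling. With array weights 1 gene did (Tgtp2, 0.56), as did 1 without the control mouse numbered 4. With median-of-ratios scaling, 1 did either without the knockdown mouse numbered 1 or with the replicate block. The share of all tested features past that threshold was 7.49% in the main fit and was not counted under these settings. At an adjusted p under 0.05, 352 of all tested features were called in the main fit. The number was 11 with median-of-ratios scaling and 3184 with array weights. Directions in that comparison turned. With median-of-ratios scaling, alone or combined with the replicate block, the log2 fold changes were -0.16 (Irgm2), -0.086 (Igtp), -0.12 (Iigp1), -0.14 (Gbp2), -0.19 (Gbp3) and -0.19 (Gbp7). With that scaling and without the knockdown mouse numbered 1 they were -0.16, -0.084, -0.11, -0.14, -0.18 and -0.18. With quantile normalization Irgm2 (-0.093), Gbp2 (-0.091), Gbp3 (-0.15) and Gbp7 (-0.15) turned, and with array weights Irgm1 (0.043). When 1 mouse was left out, the values spanned -0.28 to 0.035 for Irgm1, -0.087 to 0.20 for Irgm2, -0.089 to 0.31 for Igtp, -0.13 to 0.27 for Iigp1, -0.13 to 0.25 for Gbp2, -0.15 to 0.15 for Gbp3 and -0.21 to 0.18 for Gbp7. The deposited TPM shifted the median of all features by 0.17 in this comparison, 0.09 in each of the others, and median-of-ratios scaling brought it near 0. The cause was not tested. Depth is unknown from TPM, so counting error could not be separated from the spread between mice.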
